A study of Mus musculus with 18 samples.

Results

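Slamf1, Cd48, Cd34, Kit and Ly6a encode 5 surface proteins by which haematopoietic stem cells (HSCs) of mouse bone marrow are sorted. They were chosen by symbol, not by their values, and make up 5 of the 24421 genes of the count table. Their RNA was followed in 18 libraries, 3 for each of 6 groups: long-term (LT-), short-term (ST-) and bulk-HSCs from young (2 to 3 months) and aged (23 to 25 months) mice. All mice carried the Hoxb5-tri-mCherry reporter allele, in which mCherry is expressed from the Hoxb5 locus, on a C57BL/6J background. Bulk-HSCs were sorted as lineage-negative, c-Kit+, Sca-1+, Flk2-, CD34-/low and CD150+ cells, LT-HSCs were the mCherry+ and ST-HSCs the mCherry- cells within that gate, and c-Kit beads enriched the marrow beforehand. The names LT and ST therefore rest on 1 reporter. The labels do not say whether the libraries of a group came from separate mice, so p-values measure the spread between these libraries only.

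Blood formation is maintained by rare HSCs that self-renew, while multipotent progenitors downstream of them lose that capacity. No single surface protein marks HSCs, so a combination is used: the receptor tyrosine kinase c-Kit and the GPI-anchored protein Sca-1 define an early compartment, and CD150, CD48, CD34 and Flk2 (the product of Flt3) divide it. In adult mice CD150 is characteristic of HSCs, whereas CD48, CD34 and Flk2 mark progenitors. The gate selected cells by protein, and 4 of the 5 genes encode a protein used in it, so differences in their RNA are differences among cells that had already passed the same set of protein gates. CD48 was not among the antigens of the gate as described. Whether the protein gates were set alike at both ages was not tested.

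Slamf1 encodes CD150, a self-binding receptor of the SLAM family. It is annotated on the plus strand of chr1:171767127-171801184 (mm10), a protein-coding gene. Cd48 encodes the GPI-anchored SLAM relative CD48, lies on the same strand at chr1:171682009-171705258 and ends 61.9 kb before Slamf1 starts. Cd34, which encodes a sialomucin, is farther along at chr1:194938819-194961279, also on the plus strand. Kit, the receptor of stem cell factor, lies at chr5:75574916-75656722 on the plus strand, and Ly6a, which encodes Sca-1, at chr15:74994877-74998031 on the minus strand. The 250 bases before the RefSeq start are shown for the 3 genes of chromosome 1. They were chosen because Slamf1 and Cd34 changed in opposite directions with age in ST-HSCs and bulk-HSCs, and Cd48 was close to 0 beside Slamf1. The sequences are RefSeq's (GRCm38.p6, plus strand), and capitals mark a match to TGTGGT.
Slamf1, chr1:171766882-171767131: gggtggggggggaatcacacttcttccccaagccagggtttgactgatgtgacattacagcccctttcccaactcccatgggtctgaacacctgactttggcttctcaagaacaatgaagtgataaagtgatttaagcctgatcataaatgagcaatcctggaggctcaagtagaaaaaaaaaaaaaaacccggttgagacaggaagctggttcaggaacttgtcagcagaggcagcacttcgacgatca
Cd48, chr1:171681742-171681991: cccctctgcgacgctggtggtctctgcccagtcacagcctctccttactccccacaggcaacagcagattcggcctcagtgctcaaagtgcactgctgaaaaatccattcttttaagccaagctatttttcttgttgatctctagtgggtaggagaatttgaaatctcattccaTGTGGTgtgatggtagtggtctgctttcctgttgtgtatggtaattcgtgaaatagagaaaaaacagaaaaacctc
Cd34, chr1:194938571-194938820: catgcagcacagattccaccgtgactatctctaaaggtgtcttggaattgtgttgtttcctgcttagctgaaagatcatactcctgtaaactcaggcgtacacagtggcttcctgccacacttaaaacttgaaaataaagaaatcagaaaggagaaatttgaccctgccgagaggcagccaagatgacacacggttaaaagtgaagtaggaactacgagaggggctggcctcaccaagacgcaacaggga
These windows and that of Kit were searched on both strands for 5 motifs: AGATAA of GATA factors, CCGGAAG of ETS factors, TGTGGT of Runx factors, CAGCTG, which is 1 form of the E-box, and GAAA, any 2 bases and GAAA of interferon response elements. The Runx letters stood 76 bases before the start of Cd48 and were the only match in the 4 windows. Of 27025 promoters of the same length, 10.3% held the GATA letters, 7.05% the ETS letters, 14.2% the Runx letters, 12.8% the E-box letters and 3.04% the interferon letters. The GC content was 47.2% for Slamf1, 46.0% for Cd48, 46.4% for Cd34 and 70.8% for Kit. No promoter entry was matched for Ly6a.

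The libraries held 16495048 to 22973844 counts. Between 11548 and 13876 genes had a count in young libraries and between 13526 and 14133 in aged libraries. Among genes whose median count was 200 or more, 1 to 163 were at 0 in a young library and 2 to 6 in an aged library, and the highest of these numbers were in replicate 3 of young LT-HSCs (163) and of young ST-HSCs (160). Hoxb5, whose reporter separated the fractions, had 8.20 to 40.3 TMM-normalized counts per 1000000 counts (CPM) in LT-HSCs and 0 to 4.56 CPM in ST-HSCs, with no overlap at either age. All 7 HSC marker genes summed here (Procr, Mecom, Hlf, Fgd5, Esam, Gata2 and Hoxb5) passed the filter on low values, and their summed level was 1871 to 2892 CPM in young and 1956 to 2255 CPM in aged libraries. Hlf had the highest mean of them, 1070 CPM, and so weighed most in this sum.

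Per kilobase of exon, Kit was the most abundant of the 5 RNAs. The mean over the 18 libraries was 154 CPM per kb for Kit, 73.5 for Ly6a, 17.8 for Cd34, 7.86 for Slamf1 and 0.325 for Cd48. Among tested genes with an annotated length, these levels of Kit and Ly6a were higher than 98.9% and 97.3%, that of Cd34 higher than 79.7% and that of Slamf1 higher than 53.1%. The level of Kit was also the steadiest, with a highest library 1.46 times the lowest. This ratio was 5.43 for Slamf1, 5.54 for Cd34 and 6.14 for Ly6a. Cd48 did not reach the filter of a mean of 1 CPM, so 4 of the 5 genes were tested.

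**Figure D1:**
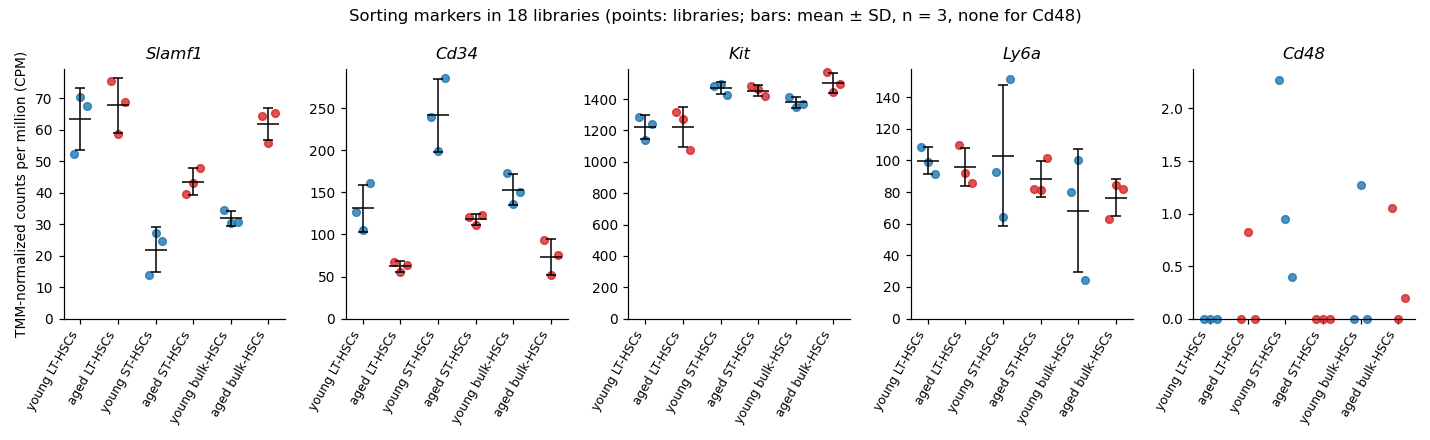
TMM-normalized CPM (y axis, from 0, its scale differing between panels) of the 5 sorting markers in each library (points) of the 6 groups (x axis, young in blue, aged in red), with mean ± SD over 3 libraries except for Cd48. Cd34 is lower in every aged group than in the young group of the same fraction, Slamf1 is lowest in young ST-HSCs (13.9 to 27.3 CPM), and Kit stays between 1075 and 1570 CPM.

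With age, Cd34 RNA fell in all 3 fractions by close to the same amount, Slamf1 RNA rose in ST-HSCs and bulk-HSCs, and no change of Kit or Ly6a was detected. In LT-HSCs, at an adjusted p under 0.05, 1 of the 5 genes was called, where 0.445% of the 12808 tested genes were called. In ST-HSCs 2 of 5 were called against 0.851% of tested genes, and in bulk-HSCs 2 of 5 against 1.98%. The libraries of the young and aged groups did not overlap for 3 of 5 genes in bulk-HSCs (22.7% of tested genes), for 3 of 5 in ST-HSCs (17.8%) and for 1 of 5 in LT-HSCs (16.1%). They were Slamf1, Cd34 and Kit in bulk-HSCs, Slamf1, Cd34 and Cd48 in ST-HSCs and Cd34 in LT-HSCs. Cd48 was not among the tested genes to which these shares refer.

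Cd34 encodes the sialomucin whose absence or low level on the surface is part of the HSC gate. In young LT-HSCs it had 127, 105 and 161 CPM in replicates 1, 2 and 3, and in aged LT-HSCs 67.6, 54.8 and 63.9 CPM. In ST-HSCs it had 240, 199 and 285 CPM in young and 121, 111 and 123 CPM in aged libraries. In bulk-HSCs it had 173, 136 and 150 CPM in young and 93.4, 51.5 and 75.1 CPM in aged libraries. Every aged library lay below every young library of its fraction. The age effect on the log2 scale was -1.06 ± 0.20 (SE) in bulk-HSCs, -1.03 ± 0.20 in ST-HSCs and -1.08 ± 0.20 in LT-HSCs (edgeR, adjusted p = 0.00940, 0.0186 and 0.0206, n = 3 libraries per group). Over LT-HSCs and ST-HSCs together, where 2.83% of tested genes were called, Cd34 fell by 1.05 on the log2 scale (95% interval -1.35 to -0.75, edgeR, adjusted p = 0.000354), and an exact permutation of ages within the fractions gave p = 0.005, the smallest that 400 arrangements allow. This fit and this permutation treat LT-HSC and ST-HSC libraries as independent. Their p-values could be too small if the fractions came from the same mice, which is not known. The fall in LT-HSCs differed from that in ST-HSCs by -0.05 on the log2 scale, with a 95% interval of -0.64 to 0.55. These are bulk libraries, in which fewer cells with an RNA and less of it per cell cannot be told apart.

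The call of Cd34 in single fractions was sensitive to the libraries. Without any 1 of the LT-HSC libraries other than young replicate 2, its adjusted p in LT-HSCs (edgeR) rose to between 0.0604 and 0.107. Without young ST-HSC replicate 3 or any 1 aged ST-HSC library, it rose in ST-HSCs to between 0.0644 and 0.1005. Replicate 3 of young LT-HSCs and of young ST-HSCs, the libraries with the most genes missing, had the highest Cd34 level of their groups. Without that library the log2 fold change was -0.90 in LT-HSCs and -0.89 in ST-HSCs. In bulk-HSCs the call was kept in all 6 such fits, and over LT-HSCs and ST-HSCs in all 12. In a fit of only the young and aged libraries of 1 fraction, Cd34 was at an adjusted p of 0.0539 to 0.122 (edgeR). The number of detected genes differed with age, as given above. With that number as a covariate the log2 fold change of Cd34 was -0.66 in bulk-HSCs, -0.75 in ST-HSCs and -0.76 in LT-HSCs (edgeR, adjusted p = 0.234, 0.123 and 0.197), and over LT-HSCs and ST-HSCs it was -0.76 (adjusted p = 0.0248). The antisense gene Gm16897 overlaps Cd34 on the minus strand and had 0.327 to 18.6 CPM. The sources used here do not say whether strand was used in counting, so reads of the overlap cannot be assigned with certainty.

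Slamf1, the CD150 gene, passed the test with age in 2 of the 3 fractions. In LT-HSCs it had 52.2, 70.5 and 67.5 CPM in the young libraries and 75.7, 58.6 and 69.0 CPM in the aged libraries. In ST-HSCs it had 13.9, 27.3 and 24.5 CPM in young and 39.6, 43.2 and 47.9 CPM in aged libraries. In bulk-HSCs it had 34.5, 30.5 and 30.6 CPM in young and 64.4, 56.0 and 65.4 CPM in aged libraries. Young and aged libraries overlapped in LT-HSCs and were separate in ST-HSCs and bulk-HSCs, where each aged library was above each young library. The log2 fold change was 0.10 ± 0.22 (SE) in LT-HSCs (95% interval -0.37 to 0.56, edgeR, adjusted p = 0.980). It was 0.99 ± 0.22 in ST-HSCs and 0.96 ± 0.22 in bulk-HSCs (edgeR, adjusted p = 0.0446 and 0.0313, n = 3 libraries per group).

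Subtracting the age effect on Slamf1 in ST-HSCs from the effect in LT-HSCs gave -0.89 on the log2 scale (95% interval -1.56 to -0.23), with an unadjusted edgeR p of 0.0109 and an adjusted p of 0.9999. A difference between the fractions in the age effect on Slamf1 is therefore not established across all genes. For this difference edgeR called 0% and DESeq2 0.648% of tested genes, 0 of the 5 sorting markers were called by either tool, and 1 of them, Slamf1, had an unadjusted p under 0.05, as did 502 of the tested genes (3.92%). The rise of Slamf1 lost its call without any 1 of the ST-HSC libraries other than young replicate 2 (adjusted p 0.0702 to 0.150, edgeR) and without any 1 of the bulk-HSC libraries (adjusted p 0.0530 to 0.117). With the number of detected genes in the model the log2 fold changes were 1.005 and 0.98 (adjusted p = 0.128 and 0.159, edgeR), and with only the young and aged libraries of the fraction fitted the adjusted p was 0.303 and 0.0548. Over LT-HSCs and ST-HSCs together the change was 0.54 ± 0.16 (SE, edgeR, adjusted p = 0.0765), against p = 0.03 in the exact permutation of ages within fractions. DESeq2 called this change (adjusted p = 0.0189), with 6.74% of tested genes. These pooled p-values share the limit given for Cd34, that the fractions may come from the same mice.

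Kit, whose product binds stem cell factor and whose expression defines the whole compartment, differed little with age. In LT-HSCs it had 1286, 1138 and 1243 CPM in young and 1319, 1274 and 1075 CPM in aged libraries. In ST-HSCs it had 1484, 1496 and 1426 CPM in young and 1481, 1463 and 1416 CPM in aged libraries. In bulk-HSCs it had 1414, 1351 and 1370 CPM in young and 1570, 1444 and 1499 CPM in aged libraries. The aged libraries were the higher ones in bulk-HSCs without overlap, and the ages overlapped in LT-HSCs and ST-HSCs. The 95% interval of the log2 change with age was -0.18 to 0.15 in ST-HSCs, -0.16 to 0.16 in LT-HSCs and -0.04 to 0.29 in bulk-HSCs, where the log2 fold change was 0.13 ± 0.08 (SE, edgeR, adjusted p = 0.557).

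Ly6a, the gene of Sca-1, varied widely between the replicates of young ST-HSCs and of young bulk-HSCs. It had 109, 99.3 and 91.7 CPM in young and 110, 91.9 and 86.0 CPM in aged LT-HSCs. In ST-HSCs it had 92.8, 64.2 and 152 CPM in young and 81.7, 81.3 and 102 CPM in aged libraries. In bulk-HSCs it had 79.9, 100 and 24.7 CPM in young and 63.0, 84.3 and 81.9 CPM in aged libraries. Its extremes were replicate 3 of young bulk-HSCs and replicate 3 of young ST-HSCs, and the second of these was 1 of the libraries with the most genes missing. The 95% intervals of the log2 change with age were wide, -0.97 to 0.53 in ST-HSCs, -0.81 to 0.69 in LT-HSCs and -0.59 to 0.91 in bulk-HSCs, so a change of the size seen for Cd34 was outside the interval in each fraction in the downward direction. None of the 10 edgeR comparisons called it. Its group means ran from 68.3 CPM in young bulk-HSCs to 103 CPM in young ST-HSCs, a ratio of 1.51 that was not among the comparisons tested, and between young LT-HSCs and young bulk-HSCs the log2 fold change was 0.55 ± 0.36 (SE, edgeR, adjusted p = 0.640).

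**Figure D2:**
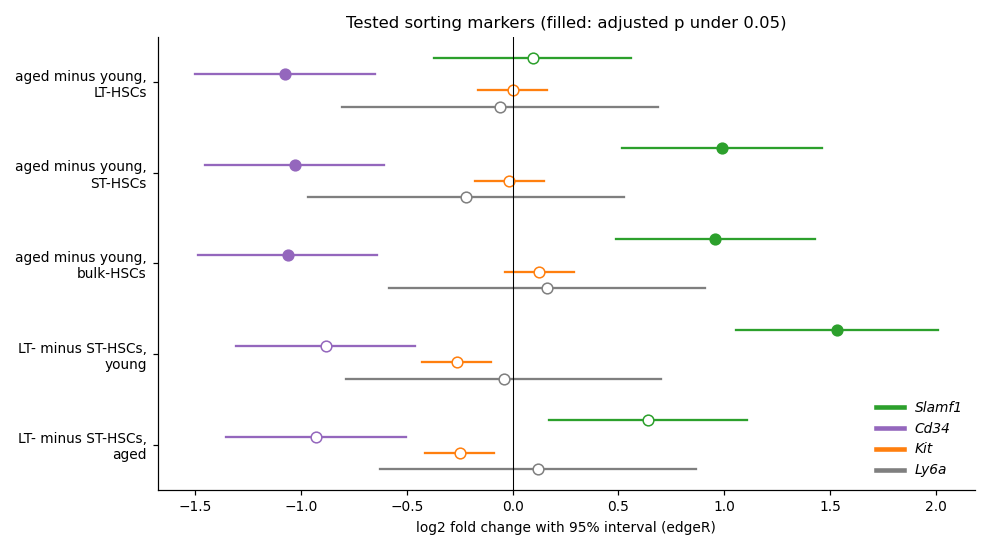
Log2 fold change (x axis, edgeR) of the 4 tested sorting markers with age in each fraction and between LT-HSCs and ST-HSCs at each age (rows), with bars giving the 95% interval and filled points an adjusted p under 0.05. Cd34 is near -1.05 in the 3 age comparisons, Slamf1 is near 0.10 in LT-HSCs and 0.99 and 0.96 in ST-HSCs and bulk-HSCs, and the intervals of Kit are the narrowest.

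Between the Hoxb5-reporter fractions, LT-HSCs held more Slamf1 and less Cd34 and Kit RNA than ST-HSCs. Over both ages 3 of the 5 genes were called, against 0.812% of tested genes. In young mice 1 of 5 was called against 0.429%, and in aged mice 0 of 5 against 0.00781%. In aged mice 3 of the 5 genes had an unadjusted edgeR p under 0.05, against 3.41% of tested genes, and DESeq2 called 1, Cd34, against 0.429%. The libraries of LT-HSCs and ST-HSCs did not overlap for 4 of 5 genes in young and for 3 of 5 in aged mice, against 12.1% and 15% of tested genes. Slamf1, Cd34 and Kit were separate at both ages. Cd48 was separate in young mice only, with 0 counts in LT-HSCs, and was not among the tested genes.

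In young mice Slamf1 was 2.89-fold higher in LT-HSCs than in ST-HSCs, 63.4 ± 9.82 against 21.9 ± 7.06 CPM (SD, n = 3), with a log2 fold change of 1.53 ± 0.23 (SE, edgeR, adjusted p = 0.00327). In aged mice the means were 67.8 ± 8.61 and 43.6 ± 4.20 CPM (SD, n = 3), a log2 fold change of 0.64 ± 0.22 (SE, edgeR, adjusted p = 1). No LT-HSC library was as low as any ST-HSC library of its age. Over both ages the log2 fold change was 1.08 ± 0.16 (SE, edgeR, adjusted p = 0.00231), and the exact permutation of fractions within ages gave its smallest p, 0.005. The call over both ages was kept when any 1 of the 12 libraries was left out, whereas the call in young mice was not made when only young LT-HSCs and ST-HSCs were fitted (edgeR, adjusted p = 0.353).

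Cd34 was 1.84-fold lower in young LT-HSCs than in young ST-HSCs (131 ± 28.4 against 241 ± 43.4 CPM, SD, n = 3) and 1.90-fold lower in aged LT-HSCs (62.1 ± 6.58 against 118 ± 6.52 CPM, SD, n = 3). Neither difference passed the threshold on its own, with log2 fold changes of -0.88 ± 0.20 and -0.93 ± 0.20 (SE, edgeR, adjusted p = 0.0627 and 0.268). Over both ages Cd34 was lower by 0.91 ± 0.14 on the log2 scale (log2 fold change -0.91, SE 0.14, edgeR, adjusted p = 0.00308), and this call was kept without any 1 of the 12 libraries. Aged ST-HSCs (111 to 123 CPM) and young LT-HSCs (105 to 161 CPM) overlapped in their Cd34 level.

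Kit was lower in LT-HSCs by 0.26 on the log2 scale over both ages (log2 fold change -0.26, SE 0.05, edgeR, adjusted p = 0.0305), which is 1.20-fold. All 6 LT-HSC libraries, at 1075 to 1319 CPM, lay below all 6 ST-HSC libraries, at 1416 to 1496 CPM. The call was lost when the library left out was any of 7 of the 12, namely young ST-HSC replicate 1 or 2, young LT-HSC replicate 2, any 1 aged ST-HSC library or aged LT-HSC replicate 3 (edgeR, adjusted p 0.0569 to 0.0849), and also with library size alone, without the filter on low levels or with only these groups fitted. Ly6a differed by 0.04 on the log2 scale over both ages (95% interval -0.49 to 0.57).

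LT-HSCs are contained in bulk-HSCs, and fewer of the 5 genes had separate libraries between these groups than between LT-HSCs and ST-HSCs. The bulk-HSC means of Slamf1 and Cd34, and of Kit in young mice, lay between those of LT-HSCs and ST-HSCs. Aged bulk-HSCs lay above both for Kit (1504 against 1223 and 1453 CPM). For Ly6a bulk-HSCs lay below both in young (68.3 against 99.9 and 103 CPM) and aged mice (76.4 against 95.8 and 88.3 CPM). The paper reports a smaller ST-HSC share of bulk-HSCs with age, whose part was not tested. In young mice 0 of 5 genes were called by edgeR (0.273% of tested genes were), 2 had an unadjusted p under 0.05 against 11.5% of tested genes, and DESeq2 called 1 against 3.42%. That gene was Slamf1, at 1.99-fold higher in young LT-HSCs (log2 0.99 ± 0.22, SE, edgeR, adjusted p = 0.0763). The libraries of LT-HSCs and bulk-HSCs did not overlap for 2 of 5 genes in young mice (12.2% of tested genes) and for 2 of 5 in aged mice (15.1%). In aged mice 0 of 5 were called by edgeR or DESeq2 (0% and 0.25% of tested genes), and 1, Kit, had an unadjusted p under 0.05, against 3.29% of tested genes. The aged means of Slamf1, 67.8 ± 8.61 CPM in LT-HSCs and 61.9 ± 5.18 CPM in bulk-HSCs (SD, n = 3), were 1.09-fold apart and their libraries overlapped (log2 0.13, 95% interval -0.34 to 0.60). For Kit, aged LT-HSCs lay below aged bulk-HSCs without overlap (log2 fold change -0.30 ± 0.08, SE, edgeR, adjusted p = 0.916).

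Ranked by mean level, Slamf1 ran from young ST-HSCs through young bulk-HSCs and aged ST-HSCs to aged bulk-HSCs, young LT-HSCs and aged LT-HSCs. The last 3 of these groups overlapped with each other in their libraries, and the first 3 did not overlap with each other. Cd34 ran from aged LT-HSCs and aged bulk-HSCs, which overlapped, through aged ST-HSCs, young LT-HSCs and young bulk-HSCs to young ST-HSCs. Aged ST-HSCs overlapped with young LT-HSCs, and young LT-HSCs with young bulk-HSCs, while young ST-HSCs stood above all other groups.

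The ratio of Slamf1 to Cd34 counts within a library needs no scaling between libraries. It was 0.411, 0.673 and 0.419 in young and 1.12, 1.07 and 1.08 in aged LT-HSCs. In ST-HSCs it was 0.0581, 0.138 and 0.0860 in young and 0.328, 0.389 and 0.389 in aged libraries. In bulk-HSCs it was 0.199, 0.224 and 0.204 in young and 0.689, 1.09 and 0.871 in aged libraries. Young and aged libraries were separate in each fraction, and 4 of 18 libraries, all aged, held more Slamf1 than Cd34 counts. On the log2 scale the ratio was higher with age by 2.05 in bulk-HSCs, by 2.06 in ST-HSCs and by 1.16 in LT-HSCs, and each of these exact permutation tests gave p = 0.1, the smallest possible with 3 libraries against 3. In LT-HSCs the ratio moved mostly with Cd34 (log2 fold change -1.08), as Slamf1 (0.10) was not called there. The ratio combines genes already tested above, so its p-values are not separate support. Over LT-HSCs and ST-HSCs the ratio was higher with age by 1.61 and higher in LT-HSCs than in ST-HSCs by 2.02, each with p = 0.005 by exact permutation (two-sided, 400 arrangements, the smallest possible). These arrangements also treat the libraries of the fractions as independent, so the p with age could be too small if the fractions shared mice. Aged ST-HSCs had a ratio below that of every young LT-HSC library. Over the 18 libraries Slamf1 and Cd34 had a Pearson r of -0.78 on log2(CPM + 1), and after the group means were subtracted r was 0.17, so the inverse relation was one between groups. These libraries share their groups, and r is given as a description.

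**Figure D3:**
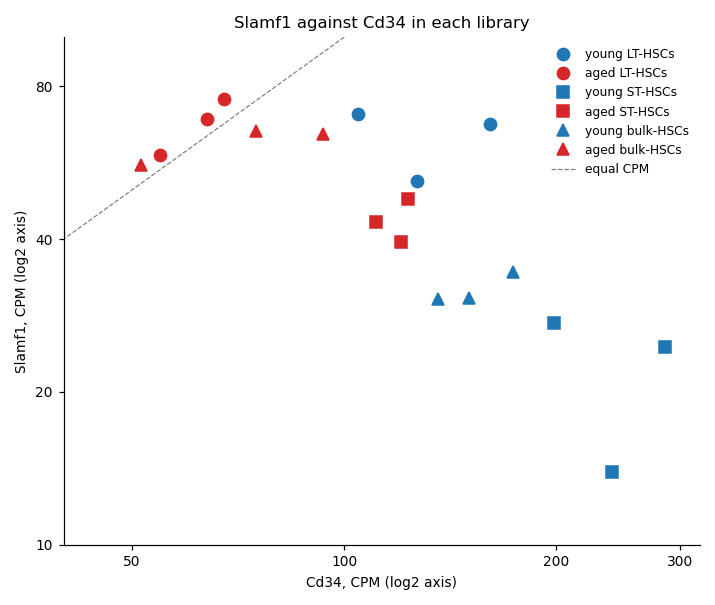
Slamf1 CPM (y axis) against Cd34 CPM (x axis), both on log2 axes, for the 18 libraries, with shape for fraction, colour for age and a dashed line at equal CPM. Young ST-HSCs sit at the lower right, aged LT-HSCs at the upper left with ratios of 1.07 to 1.12, and aged ST-HSCs, with ratios of 0.328 to 0.389, lie below young LT-HSCs, with 0.411 to 0.673.

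The ratio of Kit to Ly6a, the pair of antigens that defines the compartment, changed by 0.09 on the log2 scale with age (exact permutation p = 0.69) and was -0.34 in LT-HSCs against ST-HSCs (exact permutation p = 0.1). It ran from 9.39 in young ST-HSC replicate 3 to 55.4 in young bulk-HSC replicate 3, which are the libraries with the highest and the lowest Ly6a level. Without young ST-HSC replicate 3 the fraction difference was -0.51, and the exact permutation p was 0.005. In the other 11 of 12 fits without 1 library it did not pass (exact permutation p up to 0.295). Fewer arrangements exist with a library left out, so these p-values are not on the scale of that from all libraries.

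Cd48, whose product binds CD244 and which marks progenitors outside the HSC compartment, was listed at 0 counts in 11 of 18 libraries and held 147 counts in all. All 3 young LT-HSC and all 3 aged ST-HSC libraries were at 0. Young ST-HSCs, the only group with counts in each library, had 48, 21 and 7 counts, or 2.27, 0.952 and 0.397 CPM. Of the other libraries with counts, young bulk-HSC replicate 2 had 28, aged LT-HSC replicate 2 had 15 and aged bulk-HSC replicates 1 and 3 had 24 and 4. The libraries at 0 allow a level of up to 0.135 to 0.176 CPM, for counting error only (3 counts). Young ST-HSCs lay above young LT-HSCs and above aged ST-HSCs without overlap, and the exact permutation p of each comparison was 0.1, the smallest that 3 against 3 allows. In an edgeR fit without the filter the adjusted p of Cd48 was 0.561 or more in every comparison. Because genes with a median count of 200 or more were also at 0 in some libraries, no fold change is given. The ratio of Slamf1 to Cd48 depended on the number of counts added to the zeros: its log2 change with age was 2.44 with 0.5 counts added (exact permutation p = 0.125) and 1.65 with 3 counts added.

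The genes next to Slamf1 and Cd48 on chromosome 1 are members of the same receptor family, and their levels were unequal. Per kilobase of exon, Cd84, a self-binding SLAM receptor that starts 72.6 kb after Slamf1, had a mean of 26.6 CPM per kb, Slamf1 7.86, Ly9 4.13 and Cd48 0.325. Slamf7 was at 0 in all 18 libraries, and Slamf6 had counts in 1. No change of Cd84 was detected in the comparisons in which Slamf1 changed, and the difference between these genes was not tested. Its log2 fold change with age was 0.21 ± 0.15 in ST-HSCs and 0.08 ± 0.15 in bulk-HSCs (SE, edgeR, adjusted p = 0.800 and 0.922). It differed by 0.11 ± 0.15 between LT-HSCs and ST-HSCs in young mice (SE, edgeR, adjusted p = 0.903).

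**Figure D4:**
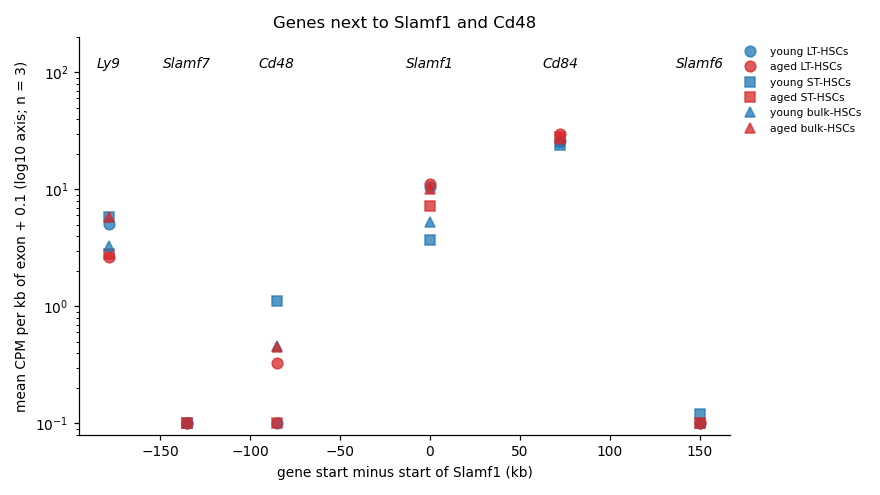
Mean CPM per kb of exon plus 0.1 (y axis, log10) of the genes beside Slamf1 and Cd48 in the 6 groups (colour for age, shape for fraction), placed by the distance of their starts from the start of Slamf1 (x axis, kb). Cd84 lies highest in every group, Slamf1 spreads from 3.56 in young ST-HSCs to 11.01 in aged LT-HSCs, and Cd48, Slamf7 and Slamf6 are at or near 0.

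Of 13 SLAM receptors, ligands and adaptors other than Slamf1 and Cd48 that are in the table, 6 were tested and none was called in any of the 10 comparisons. At most 2.83% of all tested genes were called in any of these comparisons, so no call among 6 says little. With age in ST-HSCs 2 of these 6 had a log2 fold change above 0 and their median was -0.17, against 0.02 over all tested genes. Cd2 and Sh2d1a, which encode a CD48-binding receptor and the SLAM adaptor SAP, were at 0 in all 18 libraries. Cd244, the gene of the other CD48 receptor, was at 0 in 14. Inpp5d, the gene of the SHIP-1 phosphatase, had 197 to 330 CPM.

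Ly6a lies among other Ly6 genes on chromosome 15. Its expressed neighbour Ly6e, another GPI-anchored family member, had a mean of 132 CPM per kb against 73.5 for Ly6a, whereas Ly6c1 was at 0 in all 18 libraries and Ly6i and Ly6c2 had counts in 1 library each. Ly6e did not pass the test with age in LT-HSCs (log2 fold change 0.38 ± 0.14, SE, edgeR, adjusted p = 0.383). Of 16 Ly6 and related GPI-anchored genes, 8 were at 0 in every library, 4 were tested and none was called. At most 2.83% of all tested genes were called in any comparison, so no call among 4 says little. Ly6a is known to respond to interferon. Of 33 tested interferon response genes none was called in any comparison, where at most 2.83% of all tested genes were called, so this says little. The median log2 fold change of these genes with age in LT-HSCs was -0.09 against 0.04 over all tested genes.

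Around Kit, its ligand gene Kitl had counts in 1 of 18 libraries. Of 32 tested genes of Kit signalling, Pik3cd, the delta catalytic subunit of PI3 kinase, was the only gene called with age. Its log2 fold change was -0.88 ± 0.18 in ST-HSCs and -0.85 ± 0.18 in bulk-HSCs (SE, edgeR, adjusted p = 0.0272 and 0.0204). Of all tested genes, 0.851% and 1.98% were called in these comparisons. Pik3r1, a regulatory subunit of PI3 kinase, was the only gene of this list called between the fractions over both ages, higher in LT-HSCs (log2 0.44 ± 0.09, SE, edgeR, adjusted p = 0.0195). In that comparison 0.812% of all tested genes were called. The median log2 change of the list with age was 0.01 in bulk-HSCs, 0.12 in ST-HSCs and 0.16 in LT-HSCs, against 0.03, 0.02 and 0.04 over all tested genes.

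Among 9 relatives and fellow sialomucins of Cd34 and the selectins, 7 were tested and none was called lower with age. Selp, the gene of P-selectin, rose by a log2 fold change of 4.52 ± 0.51 in ST-HSCs and 4.10 ± 0.50 in bulk-HSCs (SE, edgeR, adjusted p = 0.000119 and 0.000241). Spn, the gene of the sialomucin CD43, rose in bulk-HSCs by 0.42 ± 0.10 (SE, edgeR, adjusted p = 0.0388). Of 23 tested genes of other HSC surface markers, 6 rose with age in bulk-HSCs, 5 in ST-HSCs and 3 in LT-HSCs, and 1, the chemokine receptor gene Cxcr4, fell in bulk-HSCs (log2 -1.54 ± 0.25, SE, edgeR, adjusted p = 0.00263). Of all tested genes, 1.98% were called with age in bulk-HSCs, 0.851% in ST-HSCs and 0.445% in LT-HSCs, in either direction. Itgb3, the integrin beta 3 gene, rose in bulk-HSCs by 1.79 ± 0.17, in ST-HSCs by 1.59 ± 0.17 and in LT-HSCs by 1.16 ± 0.17 on the log2 scale (SE, edgeR, adjusted p = 3.15e-05, 8.48e-05 and 0.00477). In LT-HSCs Itgb3 passed the test and Slamf1 did not, and the difference between the genes was not tested.

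Flt3, whose product Flk2 was gated out, had 49.98 to 89.3 CPM in young and 15.7 to 25.2 CPM in aged ST-HSCs, without overlap. In bulk-HSCs it had 25.7 to 41.7 CPM in young and 6.17 to 12.9 CPM in aged libraries, and in LT-HSCs 9.16 to 22.3 and 3.88 to 18.3 CPM. Its change with age was -1.70 ± 0.49 in ST-HSCs and -1.58 ± 0.49 in bulk-HSCs on the log2 scale (SE, edgeR, adjusted p = 0.133 and 0.119). Over both ages it was lower in LT-HSCs than in ST-HSCs (log2 -1.50 ± 0.34, SE, edgeR, adjusted p = 0.0484). The progenitor markers other than Cd34 and Cd48 (Flt3, Satb1, Dntt and Il7r) summed to 63.7 to 106 CPM in young and 25.8 to 31.8 CPM in aged ST-HSCs. Their sum was 30.4 to 65.9 and 6.92 to 18.7 CPM in young and aged bulk-HSCs and 20.4 to 40.1 and 7.13 to 24.0 CPM in young and aged LT-HSCs, and Dntt and Il7r were at 0 in all 18 libraries. Between the ages in ST-HSCs and bulk-HSCs, and between LT-HSCs and ST-HSCs, the sum thus moved with Cd34 and opposite to Slamf1. Its young and aged LT-HSC libraries overlapped, as did those of aged LT-HSCs and aged bulk-HSCs. The sum, made up of Flt3 and Satb1, was not tested.

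Markers of other cells differed in level between lists. The 9 neutrophil and myeloid progenitor genes summed to 46.0 to 130 CPM in young and 123 to 182 CPM in aged libraries. Mpo and Ctsg of that list were at 0 throughout. Prtn3, the gene of a granule protease, made up most of the sum with a mean of 109 CPM, and it rose with age in bulk-HSCs (log2 1.19 ± 0.29, SE, edgeR, adjusted p = 0.0388) and over LT-HSCs and ST-HSCs (log2 0.79 ± 0.20, SE, edgeR, adjusted p = 0.0411). S100a9, the only other gene of that list tested, had a mean of 1.51 CPM and was at 0 in 10 of 18 libraries. In bulk-HSCs S100a9 went the other way with age without being called, and the median log2 fold change of these 2 genes was -3.78. The 5 megakaryocyte genes summed to 92.6 to 177 CPM in young and 120 to 194 CPM in aged libraries, the 7 erythroid genes to 0.996 to 154 and 4.64 to 56.8 CPM, and the 5 macrophage genes to at most 41.3 CPM. Of the erythroid list, Epor, the erythropoietin receptor gene, was at 0 in the 3 young ST-HSC libraries and had 0.996 to 4.65 CPM in young LT-HSCs and 2.00 to 9.53 CPM in aged ST-HSCs. It was called higher with age in ST-HSCs and over LT-HSCs and ST-HSCs, and higher in LT-HSCs than in ST-HSCs in young mice and over both ages (edgeR, adjusted p 0.00271 to 0.0220). Car1, a carbonic anhydrase gene, had 30.2 to 129 CPM in young bulk-HSCs, at most 0.441 CPM in aged bulk-HSCs and 0 in all 6 LT-HSC libraries, and was called lower with age in bulk-HSCs, lower in LT-HSCs when set against young bulk-HSCs and, over both ages, against ST-HSCs (edgeR, adjusted p 0.00665 to 0.0488). The 6 stroma and endothelium genes summed to 35.7 to 74.3 CPM in young and 62.8 to 94.8 CPM in aged libraries, with Col1a1 and Cdh5 at 0. Single genes made up most of the megakaryocyte (Itga2b, mean 96.5 CPM), stroma and endothelium (Pecam1, 63.7 CPM) and B cell sums (Cd79b, 19.5 CPM). Itga2b was also listed among the other HSC surface markers, so these sums do not measure the share of other cells. B cell, T cell and mast cell or basophil genes reached at most 29.2, 19.4 and 4.82 CPM, with Ms4a1, Ebf1, Pax5, Cd3e, Cd3g, Cd8a, Mcpt8 and Fcer1a at 0 in every library. The part of any of these cells in the changes of Slamf1 and Cd34 was not tested.

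Over the 18 libraries and 9711 genes with a mean of at least 10 CPM, the genes most like Slamf1 included Amotl2 (Pearson r = 0.90 on log2(CPM + 1)), Vwf (0.89), St3gal6 (0.89) and Jag2 (0.89). The most opposite were Cmtm7 (-0.92), Flt3 (-0.89) and Msh6 (-0.87). After group means were subtracted r was 0.77 for Jag2 and 0.57 for St3gal6, and -0.06 for Vwf. The gene most like Cd34 was Abcg1 (0.88), followed by Irf2bp2, Dock10, Arhgap15 and Antxr2 (0.85 to 0.87), and the most opposite were Ehd3 (-0.94), Plk2 (-0.91) and Exoc6b (-0.90). For Kit these were Ankrd13a (0.85), Sox4 (0.79), Slc22a3 (0.77), Serpinb1a (0.77) and Cd93 (0.76), against Ptpn14 (-0.80), Gbp6 (-0.69) and Gimap5 (-0.67). For Ly6a they were Rnf13 (0.88), Rab35 (0.87), Jrkl (0.84), Mitd1 (0.83) and Gm6710 (0.83), against Sept7 (-0.83), Panx1 (-0.79) and Bid (-0.75), and for Rnf13 r within groups was 0.92. The points share libraries and groups, so these values describe likeness only.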

How the data were processed

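RNA of LT-, ST- and bulk-HSCs was sequenced by the authors as paired-end reads from ribosome-depleted libraries. Reads were mapped by the authors to mm10 with HISAT2 and processed with SAMtools 1.7 and StringTie 1.3.4d, and the authors deposited a table of read counts per gene, whole numbers without normalization. How StringTie's output became counts, on which annotation and with which strand setting, is not given in the sources used here, so a 0 may be a failed estimate. All 18 columns were assigned to groups from the sample descriptions, and no 2 libraries of a group agreed within sampling noise.

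Counts were normalized with TMM factors in edgeR 4.0.16 (R 4.3.3). Genes averaging 1 or more TMM-normalized CPM, 12808 in all, were fitted in 1 quasi-likelihood model of 6 group means (12 residual degrees of freedom), as in the study's filter, and p-values were adjusted by Benjamini-Hochberg over all tested genes of a comparison, with a threshold of 0.05. Standard errors were derived from the F statistic. The fit was tested on simulated data with 200 of 12808 genes changed 4-fold in aged ST-HSCs. For age in ST-HSCs it called 118 of the 200 and 5 unchanged genes. A gene that was not called may therefore have changed. Exact two-sided permutation tests were used for single ratios, to which 0.5 counts were added, and for levels as log2(CPM + 1). Those over LT-HSCs and ST-HSCs took the libraries of the fractions as independent, although pairing is undecided. Depth limits precision, for counting error only, as stated for the Cd48 counts of 0. For other genes at 0 no limit is printed beside the count. A level of 3 counts was 0.136 to 0.176 CPM in young and 0.132 to 0.165 CPM in aged libraries. Lengths and positions came from GENCODE M21 (96.0% of tested genes had a length). Alternatives were other normalizations and filters, DESeq2 1.42.0, a replicate block, a covariate, fits of the compared groups alone and leaving out each library. Python 3.11.15, pandas 2.3.3, scipy 1.17.1 and matplotlib 3.10.9 were used.

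The 5 genes, the gene lists and the comparisons were chosen with earlier results of these data known. Beyond the 5 genes, Flt3 and Hoxb5 were named as genes of the sort. From each list up to 3 called genes with the smallest p were eligible, and for each member the 5 most alike and 3 most opposite genes and the 3 genes on each side of Slamf1, Cd48 and Ly6a. Genes named for their 0 counts, with Cd244, Inpp5d, Kitl and Gm16897, were chosen after their values were seen. Some genes of these lists and rules are not reported here, and the list sums and counts were computed without them.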

Additional observations from a re-analysis of the deposited data

How the results depend on the processing

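Counts of called genes among the 5 sorting markers depended on the settings as follows. For age in LT-HSCs the count was 1, and it was 0 with the number of detected genes as covariate and 0 when only the groups compared were fitted. For age in ST-HSCs it was 2, and it was 1 with no filter, 1 with the replicate block, 0 with that covariate and 0 with only the groups compared. For age in bulk-HSCs it was 2, and 0 under each of the last 2 settings. Fitting only the groups compared left Cd34 at adjusted p values of 0.0539 to 0.122 in the 3 fractions. For LT-HSCs against ST-HSCs in young mice the count was 1. It was 2 with the replicate block, with the block within age, with the covariate and with DESeq2, each of which added Cd34, and 0 with only the groups compared. DESeq2 also raised it from 1 to 2 for age over LT-HSCs and ST-HSCs, from 0 to 1 for LT-HSCs against ST-HSCs in aged mice and from 0 to 1 for LT-HSCs against bulk-HSCs in young mice. For Kit between LT-HSCs and ST-HSCs over both ages the adjusted p (edgeR) was 0.0751 with library size alone, 0.0609 with no filter and 0.1003 with only the groups compared. The causes of these shifts were not tested. Leaving out 1 library gave 0 to 1 calls for age in LT-HSCs, 0 to 2 in ST-HSCs, 1 in bulk-HSCs in all 6 fits, 1 to 2 over LT-HSCs and ST-HSCs, 1 to 2 for LT-HSCs against ST-HSCs in young mice and 2 to 3 over both ages. The labels do not say that replicate numbers mark paired libraries, and of 9 same-numbered pairs at each age 1 young and 0 aged pairs had deviations correlated above 0.1, so the numbers were not used as pairs. As a hint from the data, all 6 same-numbered pairs of LT-HSC and ST-HSC libraries correlated above 0 (0.0175 to 0.124), 10 of 12 differently numbered pairs below 0, and 11 of the 12 LT-HSC and ST-HSC libraries correlated best with their own number, so pairing is undecided. These counts are not independent of each other, because deviations from a group mean sum to 0 within the group. With the replicate block Slamf1 in ST-HSCs had an adjusted p of 0.0569 (edgeR) and Cd34 between young LT-HSCs and ST-HSCs 0.0159, and the block changed no other call of a sorting marker.

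Over all genes, alternatives other than leaving out a library called 9 to 290 genes for age in LT-HSCs (57 in the reported fit), 26 to 448 in ST-HSCs (109), 82 to 741 in bulk-HSCs (253) and 98 to 863 over LT-HSCs and ST-HSCs (363). For LT-HSCs against ST-HSCs they called 5 to 387 in young mice (55), 1 to 55 in aged mice (1) and 76 to 394 over both ages (104), and for LT-HSCs against bulk-HSCs 0 to 438 in young (35) and 0 to 32 in aged mice (0).

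Some values that did not pass the test changed sign. For Kit with age in LT-HSCs the log2 fold change was -0.0207 with RLE size factors, -0.0349 with library size alone, -0.00156 with the replicate block, -0.0111 with only the groups compared and -0.0204 with DESeq2. For Ly6a with age in LT-HSCs it was 0.10 with the covariate, which also gave 0.00143 for Kit in ST-HSCs, 0.0104 for Kit and 0.0364 for Ly6a over LT-HSCs and ST-HSCs, and 0.0102 for Ly6a in young LT-HSCs against ST-HSCs, where library size alone gave 0.0144. The difference of the age effect on Kit between LT-HSCs and ST-HSCs was -0.0282 with library size alone and -0.00364 with only the groups compared.

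With 1 library left out, the log2 fold change with age in LT-HSCs ran from -0.0262 to 0.19 for Slamf1, from -0.0656 to 0.0847 for Kit and from -0.17 to 0.0122 for Ly6a. In ST-HSCs it ran from -0.0306 to 0.00328 for Kit and from -0.47 to 0.17 for Ly6a, in bulk-HSCs from -0.24 to 0.55 for Ly6a, and over LT-HSCs and ST-HSCs from -0.0364 to 0.0349 for Kit and from -0.27 to 0.0534 for Ly6a. LT-HSCs against ST-HSCs gave -0.29 to 0.35 in young mice and -0.0868 to 0.23 over both ages for Ly6a. The difference of the age effect between these fractions was -0.21 to 0.13 for Cd34, -0.0598 to 0.0997 for Kit and -0.24 to 0.41 for Ly6a. The log2 ratio of Slamf1 to Cd48 ran from 1.99 to 3.32 with age and from 2.32 to 3.65 between the fractions, and only without aged LT-HSC replicate 2, which had 15 Cd48 counts, did both pass (exact permutation p = 0.025 and 0.005). The log2 ratio of Kit to Ly6a ran from -0.0805 to 0.25 with age and from -0.51 to -0.19 between the fractions. For counting error only, a Cd48 count of 0 allowed up to 0.135 to 0.176 CPM, and a failed estimate would not be covered by this limit.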
